A study of Mus musculus with 3 samples.

Results

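Coagulation and complement factors are described here as 40 genes in 4 classes, with 15 coagulation members, 5 anticoagulant, 5 fibrinolysis and 15 complement members. The members were taken from the rows of the deposited table whose annotated symbol, or its current name or synonym, is one of these genes. Of the 40, 37 had a probe, 1 each, out of 16390 named genes in the table. Klkb1 (plasma prekallikrein), C1ra (a protease of the first complement component) and C8g (a subunit of the C8 complex) had no row under these names. Of the 37, 36 held a value on all 3 arrays, and Plat was blank on the array of untreated TMX-null liver.

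Liver RNA of female C57BL/6 mice was hybridised on 3 arrays with 2 channels each. The Cy3 channel held TMX-/- liver taken 24 h after an intraperitoneal injection of 3 ng LPS (a bacterial lipopolysaccharide) with 10 mg D-galactosamine (TMX-null LPS/GalN), wild-type liver after the same injection (wild-type LPS/GalN), or untreated TMX-/- liver (TMX-null untreated). The Cy5 channel of every array held liver of untreated wild-type mice. TMX is a thioredoxin-related membrane protein of the endoplasmic reticulum. The sources used here give neither the age of the mice, the deleted part of the gene nor the number of mice behind a channel, and dyes were not exchanged.

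Each value below is a log2 ratio of a liver to untreated wild-type liver, from the authors' deposited table, centred on the median of the 10184 named genes that were measured on each of the 3 arrays. With 1 array a group nothing could be tested, and p-values are absent for that reason. The only error at hand is the SD of a single probe, taken from 81 genes with 2 probes, at 0.76 log2 for TMX-null LPS/GalN, 0.42 for wild-type LPS/GalN and 0.42 for TMX-null untreated liver. It leaves out the variation between mice. The numerator of the ratio is not stated, and sample over untreated wild-type is the likely reading because Tmx1, the targeted gene, stood at -3.88 and -2.96 on the treated and untreated TMX-null arrays and at 0.59 in treated wild-type liver. With the other numerator every direction below turns. If the deposited logarithms were natural ones, every log2 value would be 1.44 times as large.

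The liver makes most plasma clotting and complement proteins, and hepatocytes are the main source. Clotting begins when tissue factor meets factor VII and runs through a chain of proteases to thrombin, which turns fibrinogen into fibrin, while antithrombin, heparin cofactor II and the protein C system hold thrombin in check and plasmin dissolves the fibrin. Complement is a parallel chain of proteases that is opened by antibody, by lectins that bind microbial sugars or spontaneously, converges on C3 and ends in a pore of terminal components. In injured liver the plasma levels of clotting factors are used clinically as a measure of the organ's synthetic function. Tissue factor, the urokinase receptor and tissue-type plasminogen activator are made largely by cells other than hepatocytes, and factor VIII largely by endothelium.

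In TMX-null liver after LPS/GalN, 30 of the 37 measured members stood at least 2-fold below untreated wild-type liver and 2 at least 2-fold above it. Over all 11755 named genes with a value on that array, 11.7% were at least 2-fold lower and 16.3% were higher by as much. In treated wild-type liver 1 of 37 members was at least 2-fold lower and 1 higher, where all genes gave 1.65% and 6.8%. In untreated TMX-null liver 0 of 36 passed 2-fold in either direction, beside 0.793% lower and 4.97% higher of all genes measured there. The median member stood at -1.44 in treated TMX-null, -0.16 in treated wild-type and -0.15 in untreated TMX-null liver, where the medians of all genes were 0.08, 0.05 and 0.03. Of the members with 3 values, 34 of 36 had their lowest value on the treated TMX-null array, which was the lowest of the 3 for 41.5% of all genes. The other 2, F3 and Plaur, had their highest value there.

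The 4 classes had similar medians in treated TMX-null liver but differed in spread. For coagulation the median member stood at -1.43 and 11 of 14 passed 2-fold downward, and for the anticoagulants these were -1.71 and 4 of 5. For complement the median was -1.39, 12 of 13 were 2-fold lower, and the members had an SD of 0.50, the narrowest of the 4 classes. Fibrinolysis members had a median of -1.36, but their SD over members was 2.49, since 3 of 5 were at least 2-fold lower and 2 at least 2-fold higher. No coagulation, anticoagulant or complement member was 2-fold higher there. The 7 members that were not 2-fold lower were F3, F8, F11, Pros1, Plat, Plaur and Masp1.

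**Figure D1:**
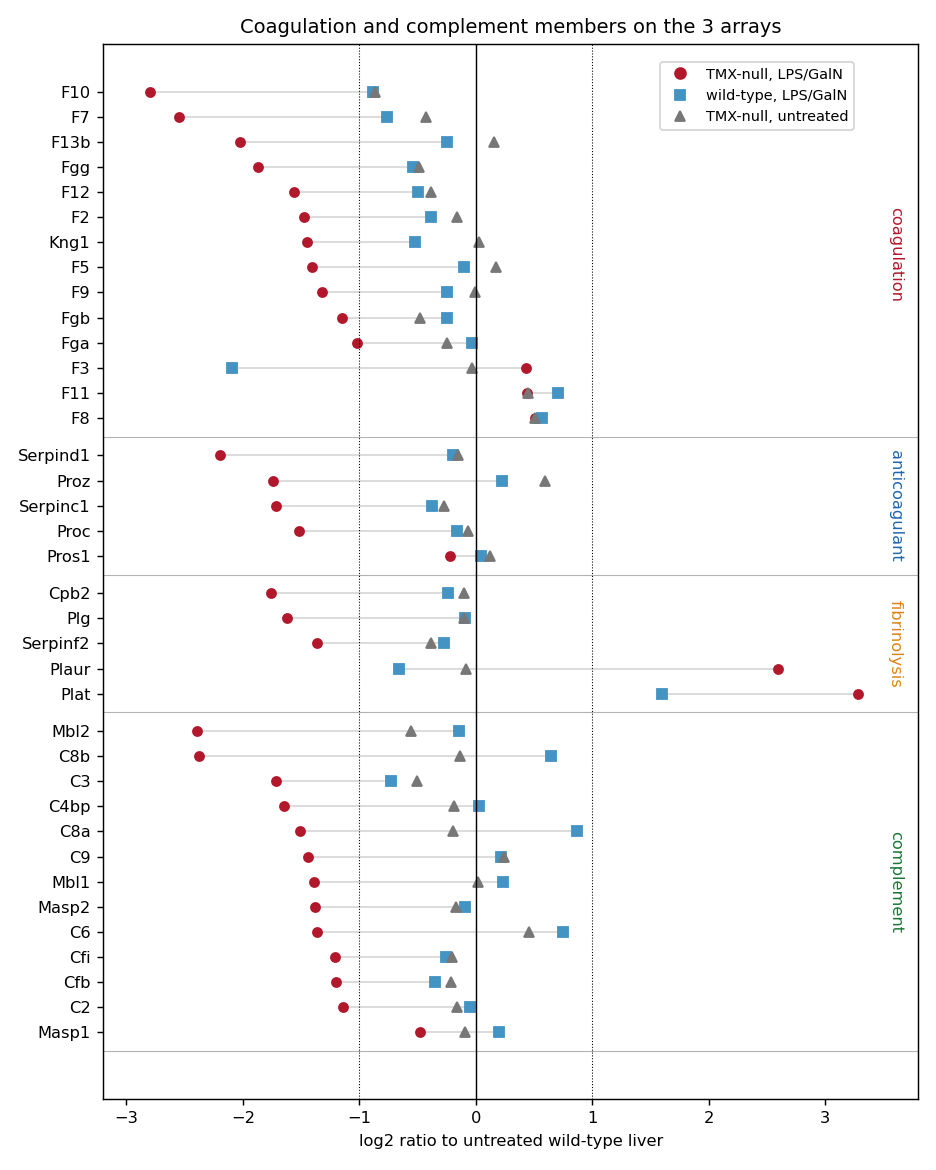
Log2 ratio to untreated wild-type liver (horizontal axis) of the 37 measured members, ordered within each class by the treated TMX-null value, with red circles for TMX-null LPS/GalN, blue squares for wild-type LPS/GalN and grey triangles for TMX-null untreated liver (1 array each, no error bars, direction read as sample over untreated wild-type). Dotted lines mark 2-fold, and 30 of the red circles lie left of the lower line while Plat (3.28) and Plaur (2.59) lie right of the upper one.

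The unequal spread of the arrays bears on these counts. The SD over genes was 1.04 on the treated TMX-null, 0.48 on the treated wild-type and 0.40 on the untreated TMX-null array, and with all arrays scaled to the same spread 13 members were at least 2-fold lower in treated TMX-null liver, where 4.82% of all genes were. Set against the probe error, 14 of 37 members lay more than 2 single-probe SDs below 0 in treated TMX-null liver, as did 5.48% of all genes.

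Promoters of the members were read for letters of known liver and stress motifs, because 30 of the members lay low together. RefSeq promoters of assembly GRCm38.p6, from 250 bases before to 50 after the start, were found for 29 of the 37 measured members, and both strands were searched. The HNF4 type motif CAAAGNNCA was present in 5 of 29 (6.36% of all 32851 promoters of that length), the HNF1 type motif GTTAATNAT in 3 (0.801%), the C/EBP type motif TTGCNNAA in 9 (10.8%), the AP-1 type motif TGANTCA in 4 (7.81%) and the NF-kB type motif GGGNNTTTC in 1, Cpb2 (4.36%). Of these 29 members, 24 were at least 2-fold lower in treated TMX-null liver and 5 were not, so matches of any motif fall mostly in lower members. The HNF4 and HNF1 type matches lay in F7, F9, Fga, Serpinc1, Serpind1, F13b and C4bp, all at least 2-fold lower in treated TMX-null liver. The AP-1 type matches lay in F2 and Fgb, both at least 2-fold lower there, and in F3 and Plaur, which were not. Of the 9 members with a C/EBP type match 7 were at least 2-fold lower, and the other 2 were F11 and Plaur. Matches of different motifs did not overlap in any of these promoters. The HNF1 and NF-kB letters were shortened after longer forms had been searched, so their shares do not come from letters fixed beforehand. The background is all promoters and not those of genes active in liver. A match is a description of letters and not of binding.

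The 7 promoters with an HNF4 or HNF1 type match are shown with those matches in capitals, written 5′ to 3′ on the gene's strand. The match lies at bases -34 to -26 from the start in F7, -56 to -48 and -8 to 1 in F9, -78 to -70 (HNF4 type) and -46 to -38 (HNF1 type) in Fga, -8 to 1 in Serpinc1, 3 to 11 in Serpind1, -54 to -46 in F13b and -64 to -56 in C4bp.
F7, chr8:13025784-13026083 (plus strand): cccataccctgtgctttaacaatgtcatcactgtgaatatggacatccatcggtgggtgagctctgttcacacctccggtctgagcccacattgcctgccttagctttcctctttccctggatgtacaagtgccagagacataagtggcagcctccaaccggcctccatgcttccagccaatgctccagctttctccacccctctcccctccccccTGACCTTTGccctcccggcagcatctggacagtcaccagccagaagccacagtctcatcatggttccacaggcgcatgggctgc
F9, chrX:59999214-59999513 (plus strand): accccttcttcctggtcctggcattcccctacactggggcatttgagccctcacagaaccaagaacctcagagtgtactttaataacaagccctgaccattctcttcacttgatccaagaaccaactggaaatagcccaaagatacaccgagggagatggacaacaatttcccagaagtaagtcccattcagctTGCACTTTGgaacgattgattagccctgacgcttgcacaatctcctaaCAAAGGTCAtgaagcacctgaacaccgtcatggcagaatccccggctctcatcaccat
Fga, chr3:83025903-83026202 (plus strand): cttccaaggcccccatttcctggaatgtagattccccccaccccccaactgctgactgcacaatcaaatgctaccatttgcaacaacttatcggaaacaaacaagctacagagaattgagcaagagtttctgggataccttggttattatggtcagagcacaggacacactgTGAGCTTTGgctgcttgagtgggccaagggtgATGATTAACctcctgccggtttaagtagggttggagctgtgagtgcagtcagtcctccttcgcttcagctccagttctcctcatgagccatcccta
Serpinc1, chr1:160978333-160978632 (plus strand): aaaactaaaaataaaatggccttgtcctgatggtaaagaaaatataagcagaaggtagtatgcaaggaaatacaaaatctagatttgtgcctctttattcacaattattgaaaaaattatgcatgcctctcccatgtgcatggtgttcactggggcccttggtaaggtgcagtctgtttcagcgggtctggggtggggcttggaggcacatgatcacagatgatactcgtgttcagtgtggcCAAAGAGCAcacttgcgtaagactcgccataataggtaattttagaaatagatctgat
Serpind1, chr16:17331121-17331420 (plus strand): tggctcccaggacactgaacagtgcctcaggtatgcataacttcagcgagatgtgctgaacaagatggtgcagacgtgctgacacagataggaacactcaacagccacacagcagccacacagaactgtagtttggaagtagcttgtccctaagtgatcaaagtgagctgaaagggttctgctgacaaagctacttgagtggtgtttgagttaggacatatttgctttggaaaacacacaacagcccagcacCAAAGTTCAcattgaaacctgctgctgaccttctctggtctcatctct
F13b, chr1:139501457-139501756 (plus strand): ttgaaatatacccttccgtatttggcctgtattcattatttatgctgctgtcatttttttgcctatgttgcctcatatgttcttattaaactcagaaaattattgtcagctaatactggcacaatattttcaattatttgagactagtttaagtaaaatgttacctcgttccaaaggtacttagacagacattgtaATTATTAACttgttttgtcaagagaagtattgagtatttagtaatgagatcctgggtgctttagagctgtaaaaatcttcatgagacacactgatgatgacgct
C4bp, chr1:130661569-130661868 (minus strand): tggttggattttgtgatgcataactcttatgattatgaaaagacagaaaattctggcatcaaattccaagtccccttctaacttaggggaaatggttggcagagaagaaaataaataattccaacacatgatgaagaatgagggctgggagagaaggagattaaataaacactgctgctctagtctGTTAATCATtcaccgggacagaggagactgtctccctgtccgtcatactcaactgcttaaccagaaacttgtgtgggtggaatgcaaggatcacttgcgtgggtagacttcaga

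The promoters of F3 and Plaur are shown because both have an AP-1 type match and a value above 0 in treated TMX-null liver. F8 (0.51), F11 (0.44) and Plat (3.28) also stood above 0 there. They are not shown because no AP-1 type match was found for them. The AP-1 type matches are in capitals, at -146 to -140 and -135 to -129 in F3 and at -69 to -63 in Plaur.
F3, chr3:121723287-121723586 (plus strand): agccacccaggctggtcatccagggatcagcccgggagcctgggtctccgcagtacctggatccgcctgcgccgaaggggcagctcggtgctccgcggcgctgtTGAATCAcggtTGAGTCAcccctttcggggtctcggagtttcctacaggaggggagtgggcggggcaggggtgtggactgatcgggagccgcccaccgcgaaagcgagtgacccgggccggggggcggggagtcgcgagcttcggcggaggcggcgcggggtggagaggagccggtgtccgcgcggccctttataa
Plaur, chr7:24462233-24462532 (plus strand): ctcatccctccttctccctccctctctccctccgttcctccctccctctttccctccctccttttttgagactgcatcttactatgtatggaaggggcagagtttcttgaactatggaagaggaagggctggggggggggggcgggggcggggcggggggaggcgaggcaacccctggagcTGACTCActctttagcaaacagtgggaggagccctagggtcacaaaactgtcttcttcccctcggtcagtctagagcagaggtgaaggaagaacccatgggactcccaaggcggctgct

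Tissue factor, encoded by F3, is the membrane receptor that starts clotting, and it was the only coagulation member past 2-fold in treated wild-type liver. F3 stood at 0.43 in treated TMX-null, -2.10 in treated wild-type and -0.03 in untreated TMX-null liver. Treated wild-type liver alone was low, at 4.27-fold below untreated wild-type liver, and 0.1% of all genes lay lower on that array. F7, the protease that tissue factor binds, stood at -2.55 in treated TMX-null, -0.76 in treated wild-type and -0.43 in untreated TMX-null liver. F10, whose product converts prothrombin into thrombin, was the lowest member in treated TMX-null liver at -2.80 (6.95-fold lower), and stood at -0.88 in treated wild-type and -0.86 in untreated TMX-null liver. F7 and F10 are thus below 0 on all 3 arrays, as are 20 of 36 members and 25.4% of all genes with 3 values. By the mouse gene order of RefSeq, F7 and F10 are next to each other, followed by Proz.

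The other proteases and cofactors of the chain were lower by smaller amounts. F2, prothrombin, stood at -1.48 in treated TMX-null, -0.39 in treated wild-type and -0.16 in untreated TMX-null liver. F9, the protease whose loss causes haemophilia B, stood at -1.32, -0.24 and -0.01 in the same livers, and F5, the cofactor of factor X, at -1.41, -0.11 and 0.17. For these 3 genes treated TMX-null liver was the only one past 2-fold. F8, the cofactor of factor IX, went against them with 0.51 in treated TMX-null, 0.57 in treated wild-type and 0.51 in untreated TMX-null liver. F11, another protease upstream of factor IX, stood at 0.44, 0.71 and 0.44 in those livers, so its 3 values, like those of F8, lay close together and above 0.

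Of the contact factors, F12 stood at -1.56 in treated TMX-null, -0.50 in treated wild-type and -0.38 in untreated TMX-null liver. Kng1, which encodes high molecular weight kininogen, stood at -1.45, -0.52 and 0.03, and Kng2, its close copy, at -1.76, -0.82 and -0.37. The probes of such copies may share signal. The fibrinogen chains, which form the fibrin clot, are products of 3 neighbouring genes. In treated TMX-null liver Fgg stood at -1.87, Fgb 2.22-fold lower and Fga at -1.02, in treated wild-type liver at -0.54, -0.25 and -0.03, and in untreated TMX-null liver at -0.49, -0.48 and -0.25. The 3 chains kept the order Fgg below Fgb below Fga on every array, but neighbours in this order differed by less than the single-probe SD on each array. F13b, the carrier subunit of the fibrin-crosslinking factor XIII, stood at -2.03, -0.25 and 0.16 in treated TMX-null, treated wild-type and untreated TMX-null liver.

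Among the anticoagulants, Serpind1 (heparin cofactor II) was the lowest in treated TMX-null liver at -2.20, and stood at -0.20 in treated wild-type and -0.16 in untreated TMX-null liver. Serpinc1, antithrombin, stood at -1.71, -0.38 and -0.27 in these livers. Proc, the zymogen of protein C, stood at -1.52, -0.16 and -0.06. These inhibitors of the chain were thus low on the same array as the proteases F2, F7, F9, F10 and F12. The protease F11 stood at 0.44 there and was not low. Proz, whose product helps the inhibitor encoded by Serpina10 to block factor X, stood at -1.74 in treated TMX-null liver against 0.22 in treated wild-type and 0.60 in untreated TMX-null liver, the highest member on that array. Pros1, the cofactor of protein C, was the exception with -0.22, 0.04 and 0.12, all within 1 probe SD of 0.

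Of 7 members whose proteins need vitamin K (F2, F7, F9, F10, Proc, Pros1 and Proz), 6 were at least 2-fold lower in treated TMX-null liver. That is 85.7%, close to the 81.1% of all measured members, where all genes gave 11.7%. Ggcx, the carboxylase that acts on them, stood at -1.50 in treated TMX-null, -0.60 in treated wild-type and -0.35 in untreated TMX-null liver. Vkorc1, the reductase that recycles the vitamin, stood at -2.09, -0.34 and 0.03. The other measured genes of that cycle were not low in treated TMX-null liver, with Nqo1 at 0.60 and Aifm2 at 0.25.

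The fibrinolysis members went in both directions in treated TMX-null liver. Plg (plasminogen), Cpb2 (a carboxypeptidase that slows fibrin breakdown) and Serpinf2 (the plasmin inhibitor) stood at -1.62, -1.76 and -1.36 in treated TMX-null liver, at -0.09, -0.24 and -0.28 in treated wild-type liver and at -0.10, -0.10 and -0.39 in untreated TMX-null liver. Plg, Cpb2 and Serpinf2 were thus low in treated TMX-null liver, as were the clotting proteases other than F11. Plat, tissue-type plasminogen activator, stood at 3.28 in treated TMX-null liver (9.73-fold higher) and at 1.59 in treated wild-type liver. Plaur, the urokinase receptor of leukocytes and other cells, stood at 2.59 in treated TMX-null, -0.66 in treated wild-type and -0.08 in untreated TMX-null liver. Plat was thus high in both treated livers, and Plaur in the treated TMX-null liver alone.

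Complement members lay within 2-fold of untreated wild-type liver in both other livers, and 12 of 13 were 2-fold lower in treated TMX-null liver. C3, on which all routes converge, stood at -1.72 in treated TMX-null, -0.73 in treated wild-type and -0.51 in untreated TMX-null liver. Mbl2, a mannose-binding lectin, was the lowest complement member in treated TMX-null liver at -2.40, and stood at -0.14 in treated wild-type and -0.56 in untreated TMX-null liver, while Mbl1, its relative, stood at -1.39, 0.23 and 0.02. The lectin pathway proteases differed, with Masp2 at -1.38, -0.09 and -0.17 and Masp1 at -0.48, 0.20 and -0.09 in the 3 livers. Masp1 was the only complement member short of 2-fold in treated TMX-null liver, by a margin smaller than the probe error. The neighbouring genes C2 and Cfb encode the proteases of the C3 convertases and had close values, -1.14 and -1.20 in treated TMX-null, -0.05 and -0.35 in treated wild-type, and -0.16 and -0.21 in untreated TMX-null liver. The regulators Cfi (a protease that inactivates complement proteins) and C4bp (a cofactor of that protease) stood at -1.21 and -1.65 in treated TMX-null liver. They stood at -0.25 and 0.02 in treated wild-type liver and at -0.21 and -0.19 in untreated TMX-null liver.

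The genes of the membrane pore lay on opposite sides of 0 in the treated livers. C8b stood at -2.38 in treated TMX-null, 0.65 in treated wild-type and -0.14 in untreated TMX-null liver. Its neighbour C8a stood at -1.51, 0.87 and -0.20, and C6 at -1.36, 0.75 and 0.46. C9, the subunit that closes the pore, stood at -1.44, 0.21 and 0.24. All 4 were at least 2-fold lower in treated TMX-null liver and above 0 in treated wild-type liver. Hc, which encodes C5 and is no member, stood at -0.98, 0.33 and 0.20 in the same order.

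After LPS/GalN, TMX-null liver was compared with wild-type liver as the difference of their arrays, in which the untreated wild-type channel and a dye effect of the gene cancel if the same preparation was used on both. At 2-fold, 24 of 37 members were lower in TMX-null liver and 3 higher, where all genes gave 10.4% lower and 10.1% higher. The median difference was -1.62 for complement, -1.36 for anticoagulant, -1.09 for fibrinolysis and -1.07 for coagulation members, against 0.01 for all genes. C8b at -3.02 (8.12-fold lower) and C8a at -2.37 were the lowest members, followed by Mbl2 at -2.25, C6 at -2.11, Serpind1 just past 4-fold, Proz at -1.97 and F10 at -1.92. C9, the other terminal complement gene measured, stood at -1.66. The 3 higher members were Plaur at 3.26, F3 at 2.52 and Plat at 1.69. F3 itself was within 2-fold of untreated wild-type liver in treated TMX-null liver and low in treated wild-type liver. The single-probe SD of this difference was 0.59, and 19 of 37 members lay more than 2 such SDs below 0, as did 7.81% of all genes. With arrays scaled to the same spread 9 members were at least 2-fold lower, 7 of them complement genes 2 anticoagulant and 0 coagulation genes, beside 6.07% of all genes, and the difference of Plat was -0.0896.

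**Figure D2:**
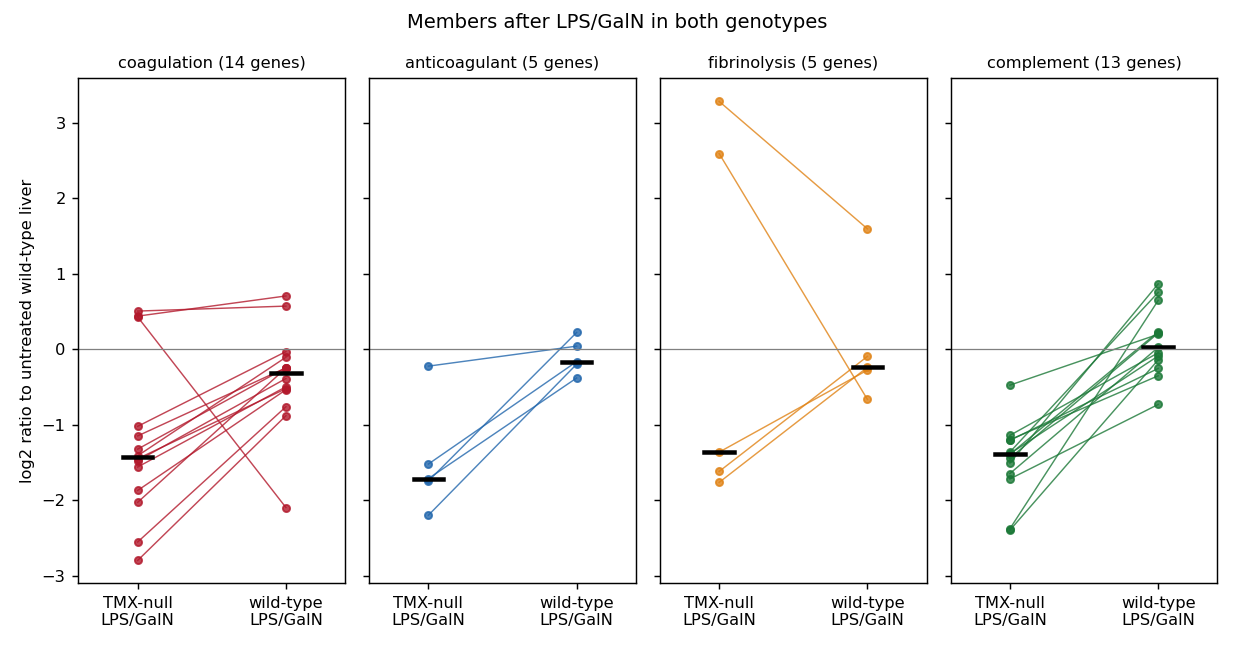
Log2 ratio to untreated wild-type liver (vertical axis) of each member in TMX-null LPS/GalN liver (left in each panel) and wild-type LPS/GalN liver (right), joined by a line, with black bars for the class median (1 array each, no error bars). Complement medians stand at -1.39 and 0.02 and coagulation medians at -1.43 and -0.32, and the lines of F3, Plat and Plaur run the other way from the rest.

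Within TMX-null liver, treated against untreated, 25 of 36 members were at least 2-fold lower and 1, Plaur at 2.67, was higher, where all genes gave 12% lower and 11.3% higher. Proz was the lowest at -2.34, then C8b at -2.24, F13b at -2.19, F7 at -2.12 and Serpind1 at -2.04. F8 and F11 stood at -0.00 and -0.01 in this difference, Pros1 at -0.35 and Masp1 at -0.38, each below its single-probe SD of 0.67. Fgb and Fga stood at -0.67 and -0.77, short of 2-fold, and both chains were also below 0 in untreated TMX-null liver. With arrays scaled to the same spread 7 members were at least 2-fold lower, beside 8.08% of all genes.

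Subtracting the response of wild-type liver from that of TMX-null liver left 19 of 36 members at least 2-fold lower and 2 higher, where all genes gave 11.6% and 9.81%. The members at the low end were C8b at -2.89, C6 at -2.57, Proz at -2.56, C8a at -2.17, F13b at -1.94 and C9 at -1.90, so 4 of these 6 were terminal complement genes. Plaur (3.34) and F3 (2.56) were the 2 higher ones. The fibrinogen chains Fga, Fgb and Fgg stood at -0.74, -0.42 and -0.84, none past 2-fold, and C3 at -0.48. With arrays scaled to the same spread 10 members were at least 2-fold lower, beside 12.7% of all genes. F7 and F10 then stood at 0.12 and 0.81, and the coagulation median at -0.17 in place of -0.89. The untreated wild-type channel enters this value once, so an error of that channel is not removed.

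**Figure D3:**
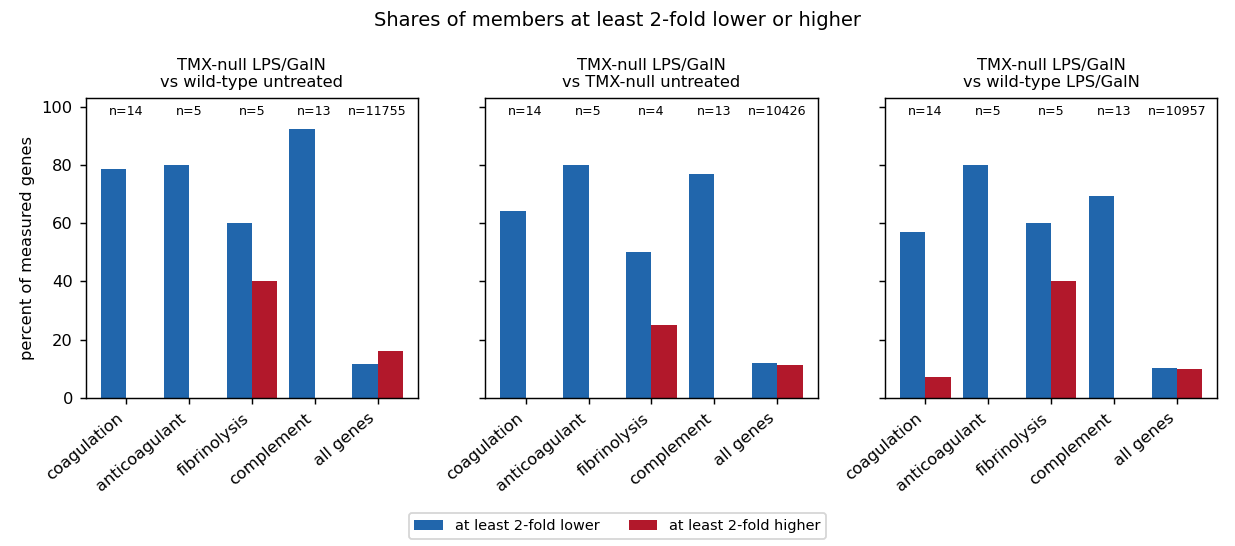
Percent of measured genes (vertical axis) at least 2-fold lower (blue) or higher (red) in each class and over all genes, with the number of genes measured above the bars. The 3 panels set treated TMX-null liver against untreated wild-type, untreated TMX-null and treated wild-type liver, and in the first of them 92.3% of complement members and 78.6% of coagulation members were lower, beside 11.7% of all genes.

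Other genes of the same systems were set beside the members. Of the 16 measured genes on a list of other coagulation and anticoagulant genes, 6 were at least 2-fold lower in treated TMX-null liver and 4 higher. The lowest were Hrg (histidine-rich glycoprotein of plasma, -2.72), Serpina10 (the protein Z-dependent inhibitor, -2.38), Habp2 (a plasma protease that can activate factor VII, -2.15) and Kng2. The highest were Prcp (a lysosomal carboxypeptidase, 2.24), F2rl2 (1.58) and F2r (1.28), which encode thrombin receptors, and F13a1 (the catalytic subunit of factor XIII, 1.52). F13a1 and F2rl2 were blank on the other arrays. Of 8 other fibrinolysis genes measured, 0 were 2-fold lower and 4 higher, namely Anxa2 (3.52) and S100a10 (2.45), which together form a cell surface receptor for plasminogen, Serpinb2 (an inhibitor of urokinase, 1.87) and Plgrkt (another plasminogen receptor).

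Of 15 other complement genes measured, 6 were at least 2-fold lower and 5 higher in treated TMX-null liver. The lower ones included Vtn (vitronectin, -1.77), C1s1 (a protease of the first component, -1.68), Cpn1 (-1.48) and C1rl (-1.46). The higher ones were the chains of C1q, a product of macrophages, with C1qb at 1.47, C1qc at 1.29 and C1qa at 1.20, together with Fcna (a ficolin of macrophages, 1.26) and Cfp (properdin, 1.05). In treated wild-type liver C1qa, C1qb and C1qc stood at 1.23, 1.10 and 1.08, so the 3 chains were past 2-fold in both treated livers. They were also above 0 in untreated TMX-null liver, at 0.80, 0.67 and 0.80. Within TMX-null liver, treated minus untreated, they stood at 0.40, 0.80 and 0.49, short of 2-fold. Fcna was past 2-fold in untreated TMX-null liver as well, at 1.17, and its treated minus untreated difference was 0.08. Of 10 complement receptors and membrane regulators measured, 7 were at least 2-fold higher in treated TMX-null liver and 1, the pore inhibitor Cd59a (-1.69), lower. Of the 8 also measured in treated wild-type liver, 6 were at least 2-fold higher in the TMX-null and 3 in the wild-type liver. The highest were C3ar1 (2.88), Itgb2 (2.63), Itgam (2.55) and Cd93 (2.48), the first 3 being complement receptors of myeloid cells or subunits of them.

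Cell markers were read on the same arrays. Hepatocyte markers had a median of -1.88 in treated TMX-null, -0.26 in treated wild-type and -0.41 in untreated TMX-null liver, with 8 of 10, 3 of 10 and 0 of 10 at least 2-fold lower. They ranged in treated TMX-null liver from Cyp2e1 at -4.48 to Apob at -0.15, with Alb at -1.84 and Ttr at -2.35, so the member median of -1.44 lies inside their range. In whole liver, fewer hepatocytes and less RNA per hepatocyte cannot be told apart, and the part of either in the members' values was not tested. Alb (-1.06) and Ttr (-1.39) were also past 2-fold in treated wild-type liver, where F3 was the only member that low.

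Macrophage markers had medians of 1.48, 1.23 and 0.69 in treated TMX-null, treated wild-type and untreated TMX-null liver. Over the 3 monocyte markers measured in both treated livers the median was 4.18 in TMX-null liver (3 of 3 past 2-fold) and 0.71 in wild-type liver (1 of 3). A further monocyte marker, Chil3, had a value of 8.10 in treated TMX-null liver and blanks on the other arrays. Over the 5 neutrophil markers measured in both, the medians were 2.66 (3 of 5) and -0.30 (1 of 5), with Ly6g at -2.50 and -0.89. Plaur, a gene of such cells, was high in the same liver, and their part in its value was not tested. Endothelium markers had medians of 0.50, 0.06 and -0.05 in treated TMX-null, treated wild-type and untreated TMX-null liver (2, 0 and 0 of 6 higher). F8 stood at 0.51, 0.57 and 0.51 in these livers and did not follow those medians. Over markers measured in both treated livers, medians were 0.44 and 0.07 for 4 platelet markers, 0.79 and 0.62 for 5 T and NK cell markers and 1.03 and 0.35 for 2 B cell markers. Stellate cell markers had medians of 1.18 over 5 genes in the treated TMX-null liver and 0.36 over 6 genes in the treated wild-type liver, which are not all the same genes.

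**Figure D4:**
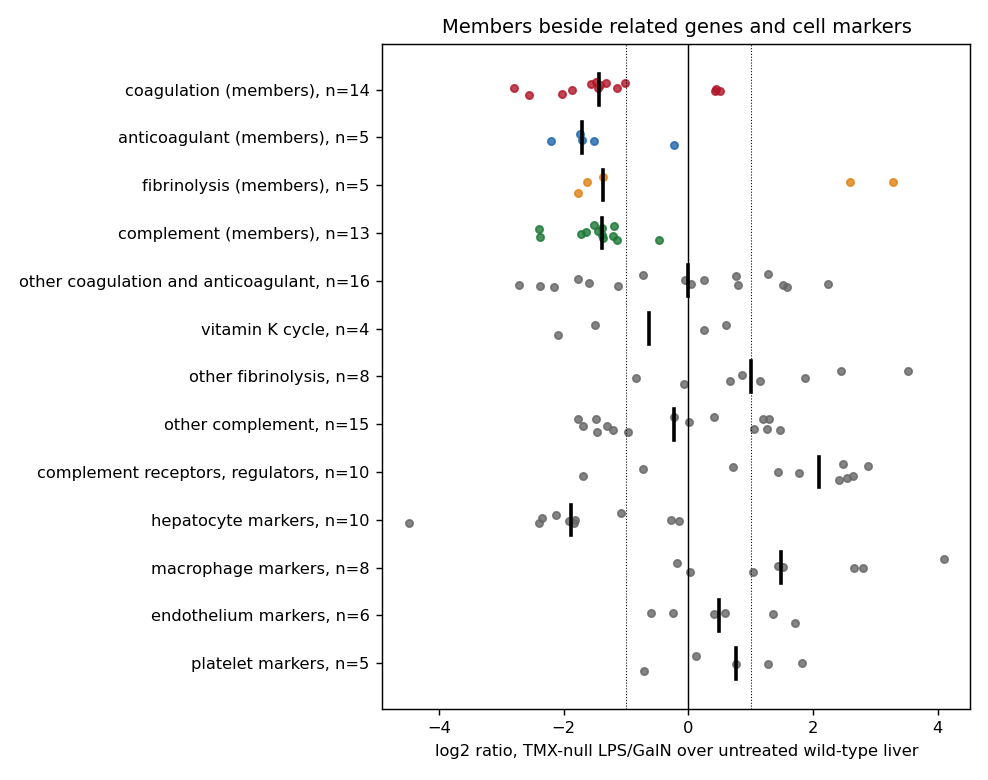
Log2 ratio of TMX-null LPS/GalN liver to untreated wild-type liver (horizontal axis) for members, related genes and cell markers, with 1 point a gene, black bars for medians, n the number measured and dotted lines at 2-fold (vertical jitter only separates points). The 4 member classes have medians from -1.71 to -1.36, hepatocyte markers -1.88 and complement receptors and regulators 2.10.

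Transcription factors of hepatocytes were read on the same arrays. Of 12 measured, 3 were at least 2-fold lower in treated TMX-null liver, namely Cebpa (-1.89), Nr0b2 (-1.29) and Nr5a2 (-1.08). The 1 higher was Foxa3 (1.08), which was also past 2-fold in treated wild-type (1.25) and untreated TMX-null liver (1.02). Cebpa, which activates many genes of plasma proteins, stood at -1.11 in treated wild-type and -0.65 in untreated TMX-null liver. Hnf4a, a nuclear receptor whose sites lie in many clotting factor promoters, stood at -0.28, -0.04 and 0.04 in treated TMX-null, treated wild-type and untreated TMX-null liver, below its probe error on all 3 arrays.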

How the data were processed

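The authors deposited 1 table of 23473 rows and 3 columns of signed log ratios, used here on the log2 scale. Per the labels' protocols, RNA from a miRNeasy extraction was amplified to amino allyl RNA and coupled to dyes. The base and numerator of the logarithm, the image analysis, background correction and normalization, and what a blank means were not given in the sources used here. Blanks were kept as missing. The deposited column medians lay at 0 within 0.0001 and the column SDs at 1.05 (TMX-null LPS/GalN), 0.60 (wild-type LPS/GalN) and 0.52 (TMX-null untreated), so the columns had been centred but not scaled. There are no signals, so dim and bright probes cannot be told apart, and precision is limited by having 1 array a group.

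GEO's platform annotation, which can be old, gave 1 symbol to 16631 rows and none to 6842. Symbols were updated by synonym through the RefSeq table of GRCm38.p6, with 3947 rows renamed. Probes of a gene were averaged and each array centred on its median over the 10184 genes with 3 values (-0.07, -0.04 and -0.03 in the order above). Differences between arrays gave the other comparisons. Genes were counted at 2-fold, and no test was run with 1 array a group. All 40 members were named, and of each related list at most the 4 highest and 4 lowest past 2-fold in treated TMX-null liver, with Hc, Nqo1, Aifm2, Hnf4a, Alb, Ttr, Ly6g, Apob, Chil3 and Cfp chosen after their values were seen. Tmx1 was named as the check of the labels. Promoters were RefSeq's of GRCm38.p6, and the HNF1 and NF-kB letters were shortened to 9 after longer forms had been searched. Lists covered other coagulation, vitamin K cycle, fibrinolysis and complement genes, transcription factors and cell markers. The members and lists were chosen with earlier results of these data known. The centring and counting were tested on simulated data with a smaller spread than the real arrays, so that test does not show how counts behave at the real spread. Python 3.11.15, numpy 2.4.6, pandas 2.3.3 and matplotlib 3.10.9 were used. Alternatives were values without centring, the first probe of a gene, equal spread of arrays, natural logarithm, 3-fold and 1.5-fold thresholds, annotation symbols, members with 3 values, and treated wild-type against untreated TMX-null liver.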

Additional observations from a re-analysis of the deposited data

Results flagged for a closer look

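For 4 members the response to LPS/GalN ran in opposite directions in the 2 genotypes, each response being larger than its single-probe SD. Plaur stood at 2.67 in TMX-null liver, treated minus untreated, and at -0.66 in wild-type liver, a difference of 3.34. C8b stood at -2.24 and 0.65, a difference of -2.89. C6 stood at -1.82 and 0.75, a difference of -2.57. C8a stood at -1.31 and 0.87, a difference of -2.17. With 1 array a group these differences were not tested. The share of all genes with opposite responses was not computed, so whether these counts of members are unusual is not known. Over all genes, 4577 of 12338 had a wild-type response beyond its single-probe SD. In TMX-null liver, treated minus untreated, 4262 of 10426 did. A further 9 members had responses of opposite sign of which at least 1 lay within its single-probe SD, among them F3 at 0.46 in TMX-null and -2.10 in wild-type liver.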

How the results depend on the processing

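The counts of members at least 2-fold lower depended mainly on the spread of the arrays and on the threshold. With arrays scaled to equal spread the count was 13 in treated TMX-null liver against untreated wild-type liver (30 as reported). It was 7 against untreated TMX-null liver (25) and 9 against treated wild-type liver (24). It was 10 for the difference of the responses (19), 3 in treated wild-type liver (1) and 1 in untreated TMX-null liver (0). Of all genes, 4.82%, 8.08%, 6.07%, 12.7%, 3.98% and 4.33% were that low in the same order. In the same setting the TMX-null minus wild-type difference of Plat after LPS/GalN turned to -0.0896, and the difference of the responses turned to 0.12 for F7 and 0.81 for F10. The cause of these turns is the scaling itself. It enlarges the values of the arrays with the smaller spread and shrinks those of the treated TMX-null array. A 3-fold threshold gave 13, 10, 12 and 9 for the first 4 of these comparisons, beside 5.02%, 4.78%, 4.22% and 4.52% of all genes. A 1.5-fold threshold gave 29 for the difference of the responses, 5 in treated wild-type liver and 1 in untreated TMX-null liver. At that threshold 22.7%, 7.68% and 5.37% of all genes were lower. Read as natural logarithms, the values gave 4 in treated wild-type and 1 in untreated TMX-null liver, beside 4.98% and 3.29% of all genes. The other 34 of 49 recomputed counts stayed within 1.5 times the reported ones, among them all counts without centring, with the first probe, with annotation symbols and with members valued on 3 arrays. Treated wild-type against untreated TMX-null liver also gave 1 member, F3. No paired analysis was possible because each group has 1 array.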
